A study of Mus musculus with 14 samples.

Results

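The growth factor receptors of blood cells were examined as a set of 9 mouse genes out of 52550 in the count tables: Csf1r, Csf3r, Csf2ra, Csf2rb, Csf2rb2, Il3ra, Flt3, Kit and Il6ra. The genes were taken by name, with earlier results of these data known, and all 9 passed the filter on low counts in each comparison. They were followed across 14 samples of bone marrow cells from C57BL/6 mice of 8 to 20 weeks.

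The samples were 4 of WT hematopoietic stem and progenitor cells (WT HSPCs), 4 of the same cells from Mir139 knockout mice (Mir139KO HSPCs) and 6 of WT HSPCs turned into MLL-AF9 cells by a pMSCV retrovirus encoding that fusion. Among the latter, 3 carried the vector pMSCV-MLL-AF9-neo and had been selected on neomycin, and 3 carried pMSCV-MLL-AF9-puro and had been selected on puromycin. The HSPC samples were enriched marrow, lysed after isolation or after expansion (the labels do not say which for each sample), whereas the MLL-AF9 cells were lysed only after drug selection and repeated plating in methylcellulose. No sample is labelled as HSPCs selected and replated without the fusion, so the fusion gene, replating, selection and culture with growth factors cannot be told apart. The growth factors of the culture medium of the MLL-AF9 cells were SCF, GM-CSF, IL-6 and IL-3. Whether each HSPC sample had been in such a medium is not given. Nothing in the labels says that the 3 cultures of a vector came from separate mice or transductions, so p-values measure the spread between these samples, which may be technical. In such bulk samples, fewer cells of a type and less RNA per cell cannot be told apart.

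These receptors sit on the surface of blood progenitors and their myeloid descendants and pass on signals for survival, division and maturation. Kit, Flt3 and Csf1r are receptor tyrosine kinases, which pair and phosphorylate themselves when their ligand binds. The others are cytokine receptors without a kinase of their own, which work through Janus kinases and STAT factors. Csf3r, the receptor of G-CSF, pairs with itself. Csf2ra, Il3ra and Il6ra are alpha chains, which bind GM-CSF, IL-3 and IL-6 and need a second chain to signal: the common beta chain Csf2rb for GM-CSF and IL-3, the mouse beta chain Csf2rb2 for IL-3 alone, and Il6st (gp130) for IL-6. Ligands of 6 of the 9 receptors (Kit, Csf2ra, Csf2rb, Csf2rb2, Il3ra and Il6ra) were in the medium, and those of 3 (Csf1r, Csf3r and Flt3) were not.

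The deleted gene of the Mir139KO mice makes a pair of mature miRNAs, shown here with the seed (bases 2 to 8) in capitals because the seed sets which messages a miRNA can pair with. Coordinates here and below are on build GRCm38.
miR-139-5p (chr7:101475382-101475403, plus strand): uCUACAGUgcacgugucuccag
miR-139-3p (chr7:101475418-101475439, plus strand): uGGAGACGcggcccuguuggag
The 7-base complement of the miR-139-5p seed, ACTGTAG, occurred in the 3′ untranslated region of 1 of the 9 receptor genes, Flt3, and of 11.4% of 21153 annotated genes with such a region. That of the miR-139-3p seed, CGTCTCC, occurred in 0 of the 9 and in 3.59% of all. A match of letters is a description and was not tested for pairing.

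RefSeq promoter windows on build GRCm38.p6, from 250 bases before to 50 after a gene's start, were on hand for 7 of the 9 genes. The windows of the most reduced gene (Flt3), of both alpha chains that share a beta chain (Il3ra and Csf2ra) and of Csf3r are shown 5′ to 3′. Capitals mark AGGAAG, a core recognised by ETS factors such as PU.1, and TTGCNNAA, a pairing of C/EBP core letters, on either strand. Both motifs were chosen with these sequences in view.
Flt3 (chr5:147400440-147400739, minus strand): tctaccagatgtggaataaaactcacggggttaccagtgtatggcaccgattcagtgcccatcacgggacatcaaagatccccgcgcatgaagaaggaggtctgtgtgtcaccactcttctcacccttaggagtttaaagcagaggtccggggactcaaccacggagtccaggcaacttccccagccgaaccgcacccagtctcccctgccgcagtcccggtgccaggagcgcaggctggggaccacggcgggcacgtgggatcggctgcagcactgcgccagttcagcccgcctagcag
Il3ra (chr14:14346245-14346544, plus strand): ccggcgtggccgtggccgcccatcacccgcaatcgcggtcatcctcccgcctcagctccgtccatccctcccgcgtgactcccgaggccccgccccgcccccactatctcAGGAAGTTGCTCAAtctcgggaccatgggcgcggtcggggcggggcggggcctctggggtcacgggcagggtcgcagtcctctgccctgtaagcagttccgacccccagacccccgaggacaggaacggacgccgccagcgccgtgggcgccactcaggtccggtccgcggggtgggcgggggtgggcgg
Csf2ra (chr19:61228369-61228668, minus strand): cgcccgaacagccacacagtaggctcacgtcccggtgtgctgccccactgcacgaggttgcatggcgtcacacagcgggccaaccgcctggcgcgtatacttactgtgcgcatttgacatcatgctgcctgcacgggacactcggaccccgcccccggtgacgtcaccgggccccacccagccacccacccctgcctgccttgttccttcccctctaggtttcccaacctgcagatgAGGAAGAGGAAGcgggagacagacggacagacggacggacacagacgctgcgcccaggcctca
Csf3r (chr4:126024409-126024708, plus strand): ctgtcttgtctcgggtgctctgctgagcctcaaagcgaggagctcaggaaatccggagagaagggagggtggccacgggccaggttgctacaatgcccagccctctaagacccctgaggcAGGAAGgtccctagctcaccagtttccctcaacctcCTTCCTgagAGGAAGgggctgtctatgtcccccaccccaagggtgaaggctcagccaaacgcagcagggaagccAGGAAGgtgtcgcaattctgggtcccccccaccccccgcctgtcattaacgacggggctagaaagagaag
AGGAAG was present in 6 of the 7 receptor genes whose windows were read and in 35.4% of 32851 promoter windows. Csf3r held 4 matches, Csf2ra and Csf2rb2 2 each, and Il3ra, Il6ra and Kit 1 each (in Kit in either of its windows), whereas Flt3 held none. In Csf2ra both copies adjoin, just before the start. TTGCNNAA was present in 1 of the 7, Il3ra, where it directly follows AGGAAG, and in 10.8% of all windows. The Il3ra window had the highest share of G and C, 74.3% with 35 CpG dinucleotides, against a median of 52.7% over all windows. A match is a description and not a shown site.

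Total counts per library were between 35016668 and 45877994. The targeted gene Mir139 had 0 counts in all 14 libraries, so it did not check the genotype labels. The noncoding RNA gene Gm26917 took 16.99% to 35.4% of the counts in HSPC libraries and 7.55% to 10.4% in MLL-AF9 libraries. It split the HSPC libraries of each genotype into 2 under 25% and 2 over 25% (WT replicates 3 and 4, Mir139KO replicates 1 and 4). Puro replicates 1 and 3 were closely alike (Pearson r of log2 CPM across genes 0.995, the next highest pair of MLL-AF9 libraries 0.981). Kit, which marks the enriched progenitors, was present in every HSPC library at 144.5 to 265 normalised CPM (counts scaled to library size with TMM factors over all 14 libraries), and Cd34 was at 31.8 to 50.5. In MLL-AF9 libraries Cd34 was at 0.0387 to 1.62 CPM. The stem cell marker Ly6a did not follow Cd34. It was at most 31.5 CPM in WT and 36.9 CPM in Mir139KO HSPC libraries. In neo libraries it was at 1.8 to 3.31 CPM, and in puro libraries at 2.01, 68.8 and 81.8 CPM. Its log2 fold change in MLL-AF9 cells over WT HSPCs was 0.52 (SE 1.07, edgeR adjusted p = 0.688).

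In MLL-AF9 cells 6 of the 9 receptor genes were lower than in WT HSPCs and 0 were higher. Flt3 fell the most, followed by Csf1r, Il3ra, Il6ra, Csf3r and Kit. The genes Csf2ra, Csf2rb and Csf2rb2, which together make the GM-CSF receptor and the beta chains of the IL-3 receptor, did not pass the test and had log2 fold changes between 0.27 and 0.56. Of all 17077 genes tested, 62.2% were called in this comparison (Benjamini-Hochberg adjusted p under 0.05) and 29.4% were called lower. The median log2 fold change was -1.57 over the 9 receptors and 0.14 over all genes. Levels did not overlap between MLL-AF9 and WT HSPC samples for 5 of the 9, against 50.5% of all genes. After correction for GC content 5 of the 9 were called lower and 2, Csf2ra and Csf2rb, higher (58.9% of all genes called). With neo cultures alone 6 of the 9 were called and all were lower (54.2% of all genes called), and with puro cultures alone 5 were (54.1% of all genes called).

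**Figure D1:**
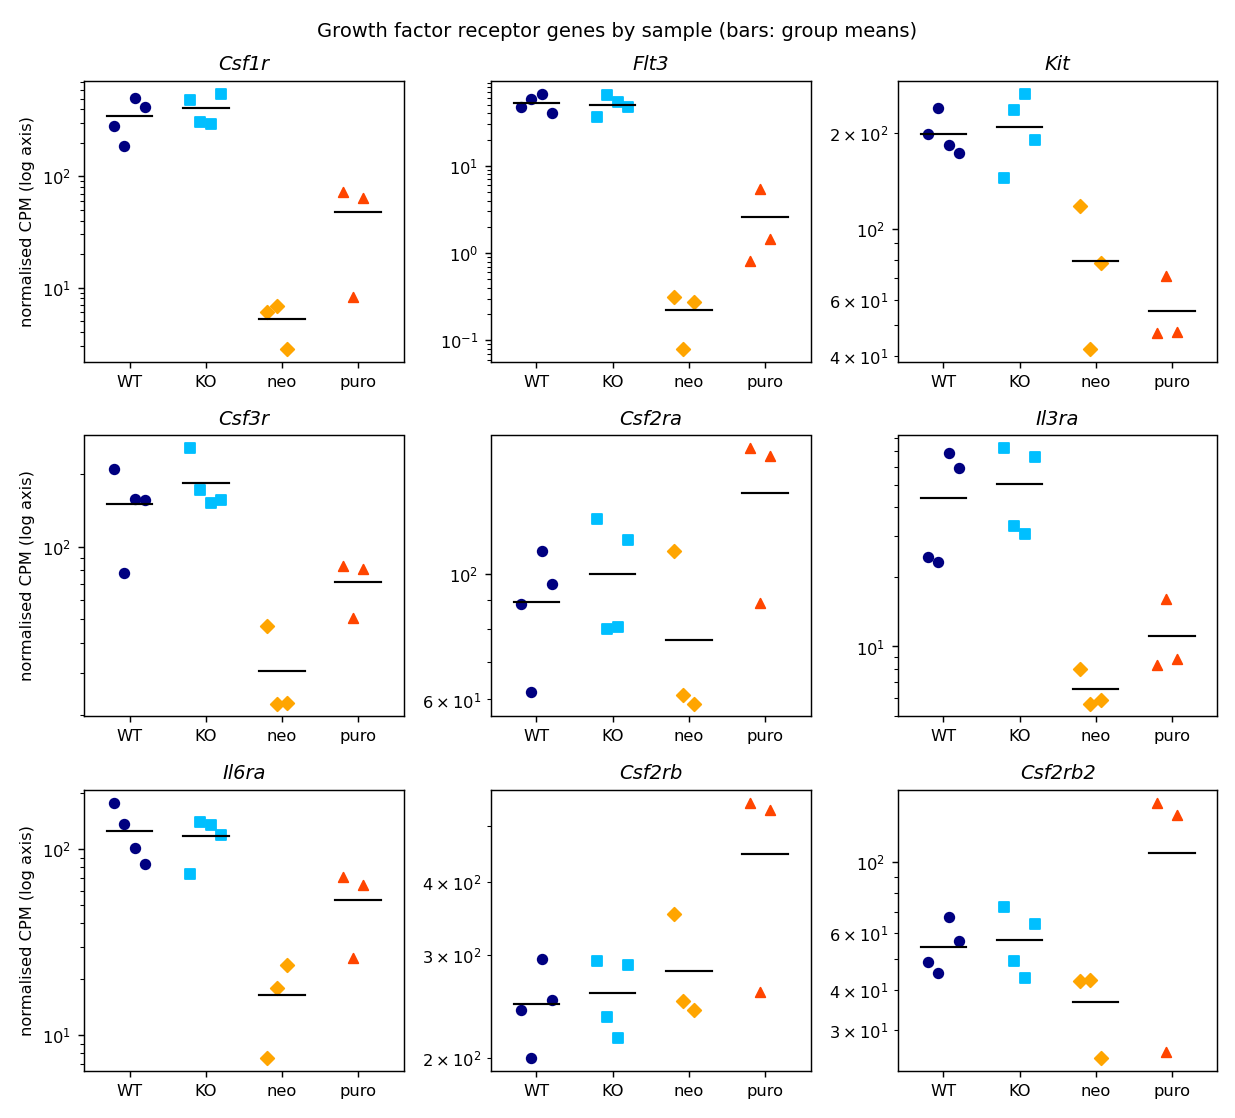
Normalised CPM (log axis) of the 9 receptor genes in each sample, with a bar at the mean of each group (WT, 4 WT HSPC samples, KO, 4 Mir139KO HSPC samples, neo and puro, 3 MLL-AF9 samples each). WT and KO points overlap in every panel, Flt3 and Csf1r fall by more than the other genes in both vectors, and Csf2ra and Csf2rb in MLL-AF9 samples lie within or above the HSPC range, apart from Csf2ra in neo replicates 2 and 3.

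Flt3 (ENSMUSG00000042817, 147330741 to 147400489 on chromosome 5), the receptor of FLT3 ligand on early progenitors, was at 47.7, 58.3, 67.2 and 40.3 CPM in WT HSPC replicates 1 to 4. In MLL-AF9 neo replicates 1 to 3 it was at 0.310, 0.0788 and 0.272 CPM, from 4 to 16 counts. In puro replicates 1 to 3 it was at 0.804, 5.49 and 1.45 CPM. All MLL-AF9 samples were far under the lowest WT sample, and puro replicate 2 stood above the other MLL-AF9 samples. Its log2 fold change was -5.27 (SE 0.91, adjusted p = 4.59e-04). It was -7.87 with neo and -4.37 with puro cultures alone, and -6.50 without puro replicate 2. B lymphoid markers, which mark cells that arise from Flt3-expressing progenitors, were lower in 7 of 7, with a summed level of 35.1 to 68.4 CPM in WT HSPCs and 1.76 to 6.47 CPM in MLL-AF9 cells. Siglech and Ly6d of the dendritic cell list were also lower, 4 of the 7 tested genes of that list in all, and 1 (Tcf4) was higher. The part of such cells in the Flt3 difference was not tested.

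Csf1r (ENSMUSG00000024621, 61100598 to 61132149 on chromosome 18), the receptor of CSF1 and IL-34 that macrophages depend on, was at 285, 188, 503 and 418 CPM in WT HSPC replicates 1 to 4. It was at 6.08, 6.80 and 2.79 CPM in neo replicates 1 to 3. In puro replicates 1 to 3 it was at 71.6, 8.21 and 64.5 CPM. Puro replicates 1 and 3 lay between the neo samples and WT HSPCs, and puro replicate 2 was near the neo samples. The log2 fold change against WT was -3.71 (SE 0.86, adjusted p = 0.00277), with -6.04 for neo and -2.83 for puro cultures alone. Of 9 monocyte and macrophage markers, 4 were lower, 1 was higher (Adgre1) and 4 did not pass the test. Their summed level was 1233 to 1588 CPM in WT HSPCs, 290 to 422 in neo and 806 to 1128 in puro samples, and their part in the Csf1r difference was not tested. Of the 5774 exonic bases of Csf1r, 873 are shared with Hmgxb3 on the other strand, and the strand setting of the counting is not given in the sources used here.

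Kit (ENSMUSG00000005672, 75574916 to 75656722 on chromosome 5), the SCF receptor, was at 198, 239, 184 and 173 CPM in WT HSPC replicates 1 to 4. It was at 117.5, 42.0 and 78.4 CPM in neo and at 47.0, 70.9 and 47.5 CPM in puro replicates 1 to 3. The highest MLL-AF9 sample lay under the lowest WT sample, and neo replicate 1 was nearest to it. The log2 fold change was -1.56 (SE 0.31, adjusted p = 0.00111). Mast cells also carry Kit. On a joint list of mast cell and basophil markers 6 of the 6 genes tested were lower, with a summed level of 668 to 1724 CPM in WT HSPCs, mostly of the basophil genes Prss34 and Mcpt8, and 10.8 to 56.5 CPM in MLL-AF9 cells. The mast cell tryptase Tpsb2, named after its values were seen, had 0 to 7 counts per WT library. Cpa3 and Fcer1a of the same list, also named after their values were seen, had 413 to 2109 and 133 to 1378 counts. The part of such cells in the Kit difference was not tested.

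Csf3r (ENSMUSG00000028859, 126024550 to 126044440 on chromosome 4), which drives the making of neutrophils, was at 211, 77.8, 158 and 156 CPM in WT HSPC replicates 1 to 4. It was at 47.0, 22.3 and 22.4 CPM in neo and at 83.1, 50.7 and 80.9 CPM in puro replicates 1 to 3. Puro replicates 1 and 3 overlapped with WT replicate 2. On the log2 scale the fold change was -1.57 (SE 0.42, adjusted p = 0.00661), and with puro cultures alone it was -1.06 with an adjusted p of 0.0515. It also missed the threshold under 4 other settings, named with their values in the closing section. Of 12 neutrophil markers 6 were lower and 6 did not pass the test. Their summed level was 4546 to 15500 CPM in WT HSPCs and 2425 to 4210 CPM in MLL-AF9 cells, and their part in the difference was not tested. Within that sum, Mpo was at 2727 to 7728 CPM in WT HSPCs and 118.8 to 619 in MLL-AF9 cells. Medians of S100a8 and S100a9 were 306 and 456 CPM in WT HSPCs and 363 and 472 CPM in MLL-AF9 cells. S100a8 alone spanned 111.8 to 1508 CPM in WT HSPCs. Medians of Ltf and Camp on the same list were 935.5 and 393.9 CPM in WT HSPCs and 51.6 and 49.2 CPM in MLL-AF9 cells. These 4 genes were named after their values were seen.

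Il3ra (ENSMUSG00000068758, 14346275 to 14356011 on chromosome 14), the alpha chain that binds IL-3, was at 24.5, 23.2, 68.7 and 58.9 CPM in WT HSPC replicates 1 to 4. It was at 8.01, 5.66 and 5.87 CPM in neo and at 8.35, 16.0 and 8.83 CPM in puro replicates 1 to 3. All MLL-AF9 samples were under all WT samples, with puro replicate 2 the nearest, and the WT samples themselves fell into a low and a high pair. Against WT HSPCs the log2 fold change was -2.33 (SE 0.39, adjusted p = 4.03e-04). It was -1.50 against the low pair (adjusted p = 0.0109) and -2.98 against the high pair (adjusted p = 9.85e-05). After correction for GC content it was -1.37 (adjusted p = 0.00128).

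Il6ra (ENSMUSG00000027947, 89864059 to 89913196 on chromosome 3), the alpha chain for IL-6, was at 178, 137, 102 and 83.8 CPM in WT HSPC replicates 1 to 4. It was at 7.55, 17.9 and 23.9 CPM in neo and at 70.5, 26.1 and 64.0 CPM in puro replicates 1 to 3. The groups did not overlap, though puro replicate 1 came close to WT replicate 4. Its log2 fold change was -1.85 (SE 0.52, adjusted p = 0.00858). It did not pass the test against the 2 WT samples over 25% Gm26917 (-1.50, adjusted p = 0.0841) or with total counts only (-1.32, adjusted p = 0.0851). Its signalling partner Il6st was at 76.4 to 215 CPM in WT HSPCs, 6.68 to 21.3 in neo and 21.8 to 142 in puro samples, and did not pass the test (-1.38 on the log2 scale, SE 0.75, adjusted p = 0.125).

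Csf2ra (ENSMUSG00000059326, 61223957 to 61228429 on chromosome 19), the alpha chain for GM-CSF, was at 88.5, 61.9, 109.8 and 96.3 CPM in WT HSPC replicates 1 to 4. It was at 109.7, 61.1 and 59.0 CPM in neo and at 167, 88.9 and 162 CPM in puro replicates 1 to 3. Neo replicates 2 and 3 were just under the lowest WT sample and puro replicates 1 and 3 were above all WT samples. The log2 fold change was 0.27 (SE 0.35, adjusted p = 0.515).

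Csf2rb (ENSMUSG00000071713, 78325752 to 78353847 on chromosome 15), the beta chain shared by the receptors of GM-CSF, IL-3 and IL-5, was at 242, 199.6, 295 and 251 CPM in WT HSPC replicates 1 to 4. It was at 353, 249.8 and 241 CPM in neo and at 548, 259 and 533 CPM in puro replicates 1 to 3. Every MLL-AF9 sample was above the lowest WT sample, and 3 were above the highest. On the log2 scale the fold change was 0.56 (SE 0.32, adjusted p = 0.144). After correction for GC content both Csf2ra and Csf2rb were called higher, at 0.98 (adjusted p = 0.0124) and 1.16 (adjusted p = 0.00405). Csf2rb was also called higher with total counts only, at 1.21 (adjusted p = 0.0141), where the median of all genes was shifted by 0.55.

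Csf2rb2 (ENSMUSG00000071714, 78282507 to 78305721 on chromosome 15), the IL-3 beta chain, lies beside Csf2rb. It was at 48.7, 45.2, 67.3 and 56.9 CPM in WT HSPC replicates 1 to 4. It was at 42.7, 42.8 and 24.5 CPM in neo and at 153.5, 25.6 and 141 CPM in puro replicates 1 to 3. Puro replicates 1 and 3 were above every other sample, and the other MLL-AF9 samples were under all WT samples. Against WT HSPCs the log2 fold change was 0.39 (SE 0.54, adjusted p = 0.539), -0.55 with neo and 1.00 with puro cultures alone. The transcripts of the 2 genes share 892 windows of 50 bases, 12.3% of those of Csf2rb and 18.4% of those of Csf2rb2, so reads from there could be split or lost in counting. With both genes summed the log2 fold change was 0.53 (adjusted p = 0.202).

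**Figure D2:**
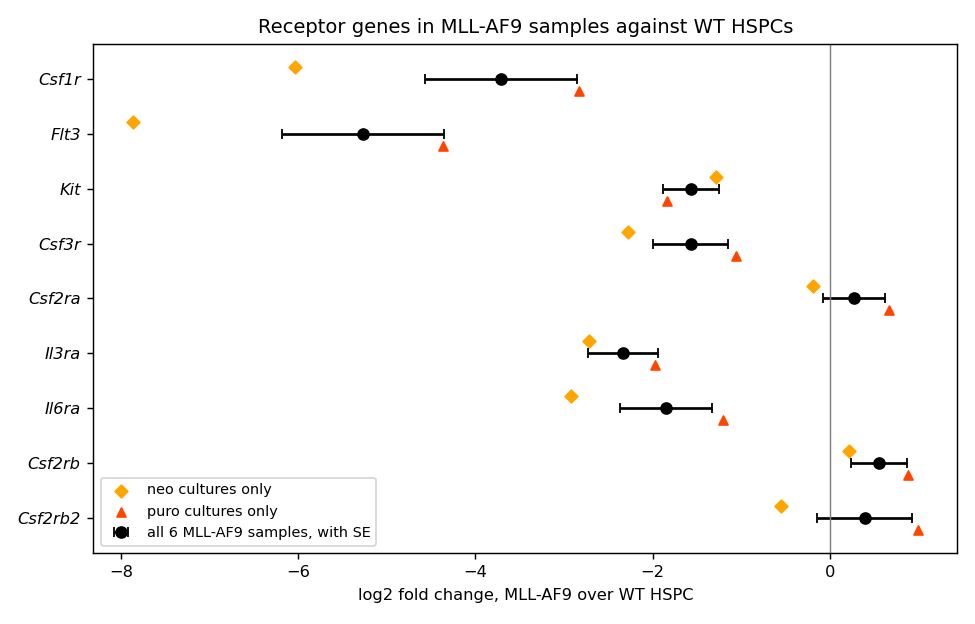
Log2 fold changes of MLL-AF9 samples over WT HSPCs (horizontal axis) for each receptor gene, with all 6 MLL-AF9 samples (black, with 1 SE), neo cultures only (diamonds) and puro cultures only (triangles). Flt3, Csf1r, Il6ra, Il3ra, Kit and Csf3r lie left of 0 in all 3 fits, and for every gene but Kit the puro value lies to the right of the neo value.

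Against Mir139KO HSPCs, which share the MLL-AF9 samples with the comparison above, 6 of the 9 were called lower and 0 higher, where 69.3% of 16953 genes were called and 31.9% were called lower. Levels did not overlap for 6 of the 9, against 58.0% of all genes. Flt3 had a log2 fold change of -5.19 (SE 0.90), Csf1r -3.95 (SE 0.85) and Il3ra -2.54 (SE 0.35). Csf3r had -1.87 (SE 0.38), Il6ra -1.76 (SE 0.50) and Kit -1.65 (SE 0.31). The values for Csf2ra (0.10), Csf2rb (0.48) and Csf2rb2 (0.31) did not pass the test. Csf2ra and Csf2rb were called higher here after GC correction and with total counts only (which shifted the median of all genes by 0.69), and Csf2rb with puro cultures alone. Il6ra missed the threshold with total counts only (-1.07, adjusted p = 0.119), under GC correction combined with the block on replicate number (-1.45, adjusted p = 0.0849) and against the Mir139KO samples over 25% Gm26917 (-1.50, adjusted p = 0.0879).

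Between Mir139KO and WT HSPCs no receptor was called. Of 15056 genes tested between Mir139KO and WT HSPCs, edgeR called 0% and DESeq2 also called 0, and 0.571% had an unadjusted p under 0.05. Among the 9 receptors 0 had an unadjusted p under 0.05 and 0 did not overlap (0.491% of all genes). Flt3, the receptor gene with a miR-139-5p seed match, was at 36.7, 64.3, 53.7 and 47.5 CPM in Mir139KO replicates 1 to 4, with a log2 fold change of -0.09 (SE 0.26). Csf3r had the largest value, 0.28 (SE 0.32), and Csf1r had 0.22 (SE 0.35). Il3ra was at 72.0, 33.2, 30.8 and 66.0 CPM and Kit at 144.5, 236, 265 and 190.2 CPM in Mir139KO replicates 1 to 4. Replicates 1 and 4, those over 25% Gm26917, were the higher pair for Il3ra and the lower pair for Kit.

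Between the 4 HSPC libraries over and the 4 under a Gm26917 share of 25%, levels of 7 of the 9 receptors did not overlap, and neither did those of 65.2% of all 15056 genes, so the receptors were near the background here. Il3ra was at 58.9 to 72.0 CPM in the libraries over 25% and at 23.2 to 33.2 CPM in those under it, a ratio of means of 2.38. The ratio was 1.82 for Csf1r, 1.43 for Csf2ra, 1.396 for Csf2rb2, 1.26 for Csf2rb and 1.19 for Csf3r. It was 0.641 for Il6ra, 0.737 for Kit and 0.856 for Flt3. In their longest annotated transcript, the 6 genes with a ratio over 1 had 53.3% to 60.7% G and C, and the 3 genes under 1 had 48.5% to 51.2%. Because the libraries were split by a measured share, no test is given. The share also differed between HSPCs and MLL-AF9 cells. In fits of MLL-AF9 cells against the WT samples of each class, and after GC correction, Flt3, Csf1r, Il3ra and Kit were called lower.

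**Figure D3:**
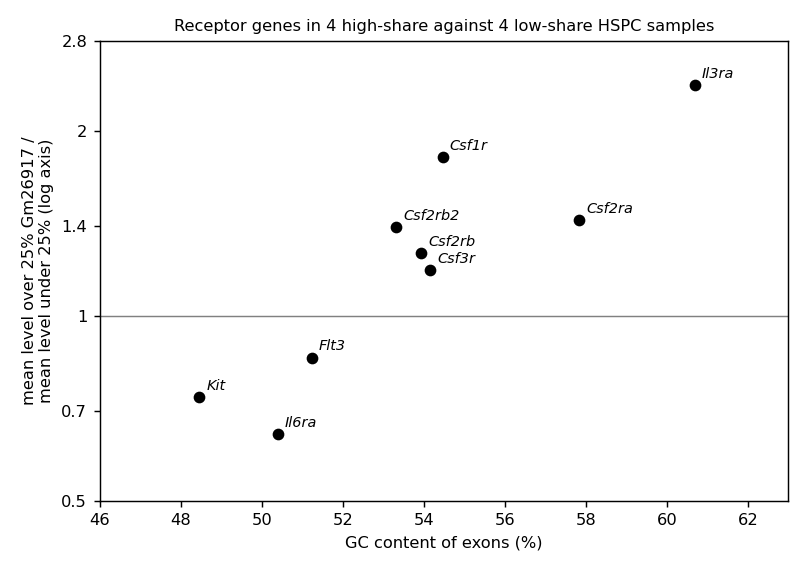
Ratio of the mean CPM in 4 HSPC libraries over 25% Gm26917 to that in 4 under it (vertical log axis) against GC content (horizontal axis). GC content is that of each gene's longest annotated transcript, though the axis names exons. Il3ra, with 60.7% G and C, is highest at 2.38, and Il6ra, Kit and Flt3, the 3 genes under 52%, lie under 1.

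Between the vectors, 8 of the 9 receptors had higher mean levels in puro than in neo cultures, but 0 were called by edgeR (0.873% of 16503 genes were). Unadjusted p-values were under 0.05 for 4 of the 9, against 13.7% of all genes, and levels did not overlap for 5, against 19.9%. Flt3 had the largest log2 fold change of puro over neo, 3.50 (SE 0.90, adjusted p = 0.150), followed by Csf1r at 3.23 (SE 0.84, adjusted p = 0.151). Il6ra (1.72, SE 0.55), Csf2rb2 (1.57, SE 0.66) and Csf3r (1.24, SE 0.40) came next, and Kit had the only negative value (-0.54, SE 0.39). DESeq2 called Csf1r, Flt3 and Il6ra higher in puro cultures (8.03% of all genes called), and a fit of all 14 samples called Csf1r and Flt3 (4.23% called). Without puro replicate 2, edgeR called Csf1r (3.74, adjusted p = 0.0114) and Csf2rb2 (2.04, adjusted p = 0.0203), with 5.75% of all genes called, and not Flt3. With puro replicates 1 and 3 summed as 1 sample, 0 were called, as were only 0.0288% of all genes, and the log2 fold changes were 2.91 for Csf1r and 3.85 for Flt3.

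Puro replicate 2 did not go with the other puro samples in the same way for every gene. For Csf1r, Csf2rb2, Csf2rb and Il6ra it was at 8.21, 25.6, 259 and 26.1 CPM, near the neo samples, which were at 2.79 to 6.80, 24.5 to 42.8, 241 to 353 and 7.55 to 23.9 CPM. For Flt3, at 5.49 CPM, and Il3ra, at 16.0 CPM, it was the highest of the 6 MLL-AF9 samples. Across the 6 MLL-AF9 samples, which share 2 vectors and hold the alike pair, the Pearson r of log2 CPM was 0.974 for Csf3r with Csf2ra, 0.962 for Csf2ra with Csf2rb, 0.953 for Csf1r with Csf2rb2 and 0.943 for Flt3 with Il3ra. Across the 8 HSPC samples, which share the Gm26917 split, the same pairs had an r of 0.7345, 0.966, 0.886 and -0.366 in that order.

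Levels can be ranked between genes only per length, here as CPM per kilobase (kb) of exon. In WT HSPCs Csf1r was highest at 60.3 ± 24.2 CPM per kb (SD, n = 4), then Csf3r at 41.8 ± 15.2, Csf2rb at 33.9 ± 5.38 and Csf2ra at 31.1 ± 7.03. Kit followed at 22.3 ± 3.28, Il3ra at 14.8 ± 7.90, Il6ra at 14.5 ± 4.796, Csf2rb2 at 11.5 ± 2.08 and Flt3 at 8.64 ± 1.91. Among neighbours in this order, Csf2ra and Kit, and Csf2rb2 and Flt3, differed by more than the larger SD, and the others did not. Mir139KO HSPCs had the same order. In MLL-AF9 cells Csf2rb was highest at 50.03 ± 19.6 CPM per kb (SD, n = 6) and Csf2ra second at 37.6 ± 16.6, and those neighbours differed by less than their SD. Csf2rb2 was at 15.1 ± 12.5, Csf3r at 14.2 ± 7.42, Kit at 7.54 ± 3.21, Csf1r at 4.62 ± 5.58, Il6ra at 4.05 ± 3.00, Il3ra at 2.96 ± 1.27 and Flt3 at 0.227 ± 0.334. The order differed between vectors. In neo cultures Csf1r (0.905 ± 0.370, SD, n = 3) came just before Flt3, the lowest, and Kit (8.90 ± 4.24) came before Csf3r and Csf2rb2. In puro cultures Csf2rb2 (22.5 ± 14.9) and Csf3r (19.8 ± 5.02) came before Csf1r (8.33 ± 6.02), and Kit (6.19 ± 1.53) after it.

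**Figure D4:**
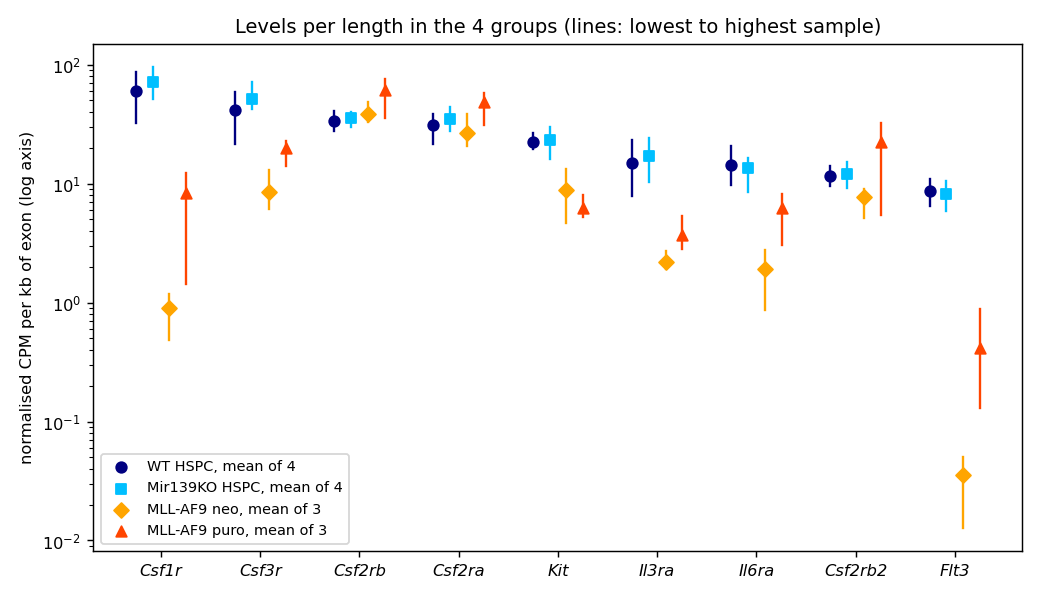
Mean CPM per kb of exon (log axis) of each receptor gene in WT HSPC, Mir139KO HSPC, MLL-AF9 neo and MLL-AF9 puro samples, with lines from the lowest to the highest sample. Genes are ordered by their level in WT HSPCs, and both MLL-AF9 means lie below the HSPC means for Csf1r, Csf3r, Kit, Il3ra, Il6ra and Flt3. For Csf2rb2 the neo mean (7.74) lies below and the puro mean (22.5) above the WT mean (11.5), and for Csf2rb the puro mean (61.4) lies above the WT mean (33.9).

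Ratios of counts within a library do not depend on the scaling between libraries. They were compared for the alpha and beta chain of the GM-CSF receptor, which work together (Csf2ra to Csf2rb), and for 4 pairs that are alternatives or separate receptors (Csf2rb2 to Csf2rb, Il3ra to Csf2ra, Flt3 to Kit and Csf1r to Csf3r). Among 20 tests (5 ratios in 4 comparisons, exact two-sided permutation tests, adjusted over all 20), 6 had an adjusted p under 0.05. All 6 were for Il3ra to Csf2ra, Flt3 to Kit and Csf1r to Csf3r in MLL-AF9 cells against either HSPC genotype. With puro replicates 1 and 3 summed, with either vector alone, or with any sample but puro replicate 2 left out, 0 passed. Fewer samples raise the smallest p that the comparisons they enter can reach. The joint adjustment carries this over to the other comparisons. Against WT, over 18 alternatives, the log2 difference was -2.65 to -2.26 for Il3ra to Csf2ra and -6.60 to -2.945 for Flt3 to Kit. It was -3.75 to -2.25 for Csf1r to Csf3r.

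Per 100 counts of Csf2ra, Il3ra had 27.7, 37.5, 62.6 and 61.2 counts in WT HSPC replicates 1 to 4, and 4.995 to 18.0 in the 6 MLL-AF9 samples. The mean log2 ratio was 2.42 lower in MLL-AF9 cells (-3.59 ± 0.68, SD, n = 6, against -1.16 ± 0.57, SD, n = 4, exact permutation p = 0.00952, adjusted p = 0.0317). Both alpha chains signal through Csf2rb, so the balance of IL-3 to GM-CSF alpha chain messages was lower in each MLL-AF9 sample than in each WT sample. Per 100 counts of Kit, Flt3 had 23.3 to 36.6 counts in WT HSPCs, 0.188 to 0.347 in neo and 1.71 to 7.74 in puro samples. Its mean log2 ratio was -6.68 ± 2.13 in MLL-AF9 cells (SD, n = 6) and -1.91 ± 0.31 in WT HSPCs (SD, n = 4), with the same exact permutation p of 0.00952, the smallest that 6 against 4 samples can give. Per 100 counts of Csf3r, Csf1r had 135 to 317 counts in WT HSPCs and 12.5 to 86.2 in MLL-AF9 cells, a difference in mean log2 ratio of -3.00 with the same p.

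Csf2ra had 31.0 to 38.3 counts per 100 of Csf2rb in WT HSPCs and 24.5 to 34.3 in MLL-AF9 cells, which overlap (difference -0.30 on the log2 scale, exact permutation p = 0.0286, adjusted p = 0.0714). Csf2rb2 had 20.1 to 22.8 counts per 100 of Csf2rb in WT and 20.2 to 24.7 in Mir139KO HSPCs, a narrow range. In MLL-AF9 cells it had 12.1, 17.1 and 10.2 in neo and 28.01, 9.88 and 26.4 in puro replicates 1 to 3. The neo samples and puro replicate 2 were below, and puro replicates 1 and 3 above, every HSPC sample, and the means of MLL-AF9 and WT samples did not differ by the test (difference -0.48, exact permutation p = 0.210, adjusted p = 0.381). Between 3 puro and 3 neo samples the test cannot go below 0.10.

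**Figure D5:**
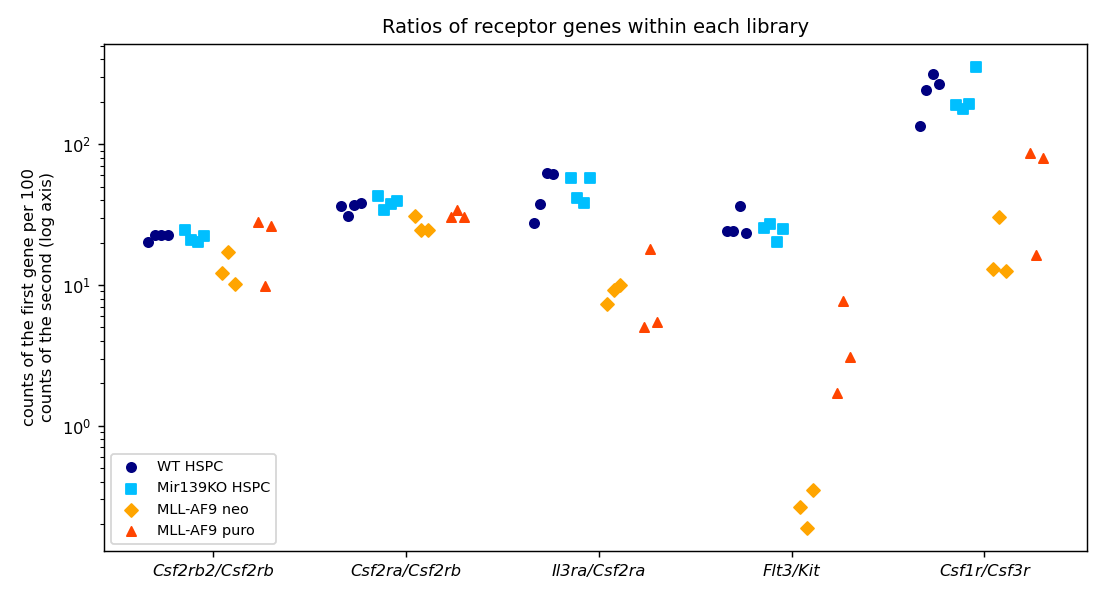
Counts of the first gene per 100 counts of the second (log axis) in each library for 5 pairs of receptor genes, by group. Il3ra/Csf2ra, Flt3/Kit and Csf1r/Csf3r are lower in all 6 MLL-AF9 libraries than in all 8 HSPC libraries, and Csf2rb2/Csf2rb is spread from 9.88 to 28.01 in MLL-AF9 libraries around a narrow HSPC range.

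The ligands of these receptors were mostly at low levels. Of 8 ligand genes 5 passed the filter on low counts between MLL-AF9 cells and WT HSPCs, where 32.8% of all genes were called higher and 29.4% lower. Kitl, which encodes SCF, was at 1.89 to 3.68 CPM in WT HSPCs and had 0 to 2 counts per MLL-AF9 library, and was called lower. Il6 was called lower, from 0.743 to 2.46 CPM to at most 0.181 CPM. Csf1 was called lower by less than the others (log2 value -0.92, SE 0.35, adjusted p = 0.0374), with overlapping groups. Csf3, which encodes G-CSF, was called higher, with 1 to 5 counts per WT library and 9 to 34 per MLL-AF9 library. Il34 did not pass the test (0.84, SE 0.73). Csf2, Il3 and Flt3l were not tested, and Il3 had 0 counts in all 14 libraries, where 3 counts correspond to 0.0654 to 0.0857 CPM before TMM scaling.

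Of 13 partners that carry the receptors' signals 4 were called higher, 5 lower and 4 did not pass the test, with a median log2 fold change of -0.43 (0.14 over all genes). Gab2, an adaptor bound by active receptors, was at 44.8 to 81.7 CPM in WT HSPCs and 262 to 448 CPM in MLL-AF9 cells (log2 fold change 2.49, SE 0.30). Sos1, which loads Ras with GTP, was higher by 1.95 (SE 0.46). The adaptor Shc1 had -1.37 (SE 0.23). Of 7 STAT factors 0 were called higher and 3 lower: Stat5a (-2.26, SE 0.27), Stat5b (-1.14, SE 0.27) and Stat6 (-0.67, SE 0.26), with a median of -0.51. Stat5a was at 117 to 262 CPM in WT HSPCs and at 36.2 to 40.0 CPM in the 6 MLL-AF9 samples, with no overlap.

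Of 14 negative regulators 4 were called higher, 3 lower and 7 did not pass the test (median 0.26). Socs2 and Cish, which STAT5 is known to induce and which damp cytokine receptors, were higher by 4.13 (SE 0.55) and 2.67 (SE 0.43). Socs2 was at 0.368 to 1.07 CPM in WT HSPCs and 4.34 to 21.4 CPM in MLL-AF9 cells. Spred1 (2.69, SE 0.47) and Spred2 (1.97, SE 0.52), which restrain Ras signals of tyrosine kinases, were also higher. Of 9 STAT5 and cytokine response genes 1 was called higher, 2 lower and 6 did not pass the test (median 0.20). The survival kinases Pim1 (1.98, SE 0.28) and Pim2 (-1.94, SE 0.30) went opposite ways, and Myc had -1.18 (SE 0.37).

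Of 25 other cytokine receptors of blood cells that were tested, 3 were called higher, 12 lower and 10 did not pass the test. Their median was -0.94. Epor, the erythropoietin receptor, fell from 42.4 to 117 CPM in WT HSPCs to 0.313 to 0.852 CPM in MLL-AF9 cells. Il27ra was at 8.22 to 21.6 CPM and at 0 to 0.422 CPM, and Il5ra, the third alpha chain that pairs with Csf2rb, at 0.371 to 1.54 CPM and at 0 to 0.0587 CPM. Both were called lower. Erythroid markers, a list that holds Epor, were lower in 7 of 8, and eosinophil markers, a list that holds Il5ra, in 5 of 5. Their part in these differences was not tested. Megakaryocyte markers were lower in 6 of 6.

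Of 15 other receptor tyrosine kinases tested, 3 were called higher, 6 lower and 6 did not pass the test (median -1.25). Pdgfrb and Tie1, kinases of stroma and endothelium, had -5.70 (SE 0.99) and -4.77 (SE 0.75), and Axl had -5.58 (SE 0.45). Of 6 endothelium and stroma markers, a list that holds Pdgfrb, 5 were lower, with a summed level of 188 to 1644 CPM in WT HSPCs and 0.960 to 9.19 CPM in MLL-AF9 cells. Epha7 was higher by 4.91 (SE 1.43), at 0.987 to 135.6 CPM in MLL-AF9 cells with the groups overlapping. T and NK cell markers were lower in 6 of 6. Of 8 stem cell markers 4 were lower, 1 (Meis1) was higher and 3 did not pass the test. In none of these lists was a gene called between Mir139KO and WT HSPCs (edgeR, where 0.571% of all genes had an unadjusted p under 0.05). Between puro and neo cultures Epha7 and Ccr2 were called higher and Camp lower, genes named after their values were seen.

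The genes whose log2 CPM followed each receptor most closely were found among 8542 genes whose log2 CPM averaged 3 or more over all 14 samples, a range set mostly by the difference between HSPCs and MLL-AF9 cells. They were Cln8 and Tmem268 for Csf1r (Pearson r 0.992 for both), Wipi2 for Il3ra (0.994), Oas3 for Csf3r (0.987) and Zfp740 for Flt3 (0.984). Rara was nearest to Csf2ra (0.974), Grk3 to Il6ra (0.974), Hmox1 to Csf2rb2 (0.967), Abcb4 to Kit (0.963) and Acad8 to Csf2rb (0.957). For Il6ra, its own signalling partner Il6st was among the 3 nearest genes (0.966). Over the 6 MLL-AF9 samples alone, where 8715 genes passed and many reach a high r by so few points, the nearest were Pld1 for Csf2rb2 (0.999), Tmem134 for Csf3r (0.999), Eepd1 for Csf1r (0.999) and Tut4 for Flt3 (0.989).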

How the data were processed

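RNA from which ribosomal RNA had been depleted was sequenced from 14 samples. The deposited values were raw counts of reads per gene, which the authors made with STAR 2.5.3e and featureCounts 1.6.0 on build GRCm38 and GENCODE M15. Both deposited tables were identical in all 735700 cells compared, and 10 columns of another series were not used. Annotation was GENCODE M21 (52403 of 52550 genes placed).

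Groups came from titles and descriptions. Each comparison used its own groups in edgeR 4.0.16 (R 4.3.3, TMM, robust quasi-likelihood F test), over genes with at least 10 counts in as many samples as the smaller group. Calls were at a Benjamini-Hochberg adjusted p under 0.05. SE was taken as |log2 fold change|/√F. Ratios used log2 of counts plus 0.5. DESeq2 1.42.0, limma-voom 3.58.1, other scalings, filters and sample choices were tried. The members and gene lists were chosen with earlier results of these data known. Genes named beside the 9 were, per list, the ligands and Il6st, the markers and at most 4 called genes with the largest change, and the genes with the highest Pearson r to each receptor. Some genes that this rule names are not reported here. The edgeR fit was tested on simulated counts with the same group sizes, and the permutation test on made-up numbers. The simulated counts had the same spread setting for every gene and no Gm26917 classes. The alternative settings were not simulated. Reads carry no molecular identifiers, so limits by counts cover counting error only.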

Additional observations from a re-analysis of the deposited data

Results flagged for a closer look

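In 27 sets of values (9 receptor genes in WT HSPC, Mir139KO HSPC and MLL-AF9 samples), a sample was marked where its gap to the nearest other sample was large for the range of its group by Dixon's ratio, which chance exceeds in about 1 of 20 sets. The 2 values marked were both in MLL-AF9 puro replicate 2. Il3ra was at 15.99 CPM there, the highest of 6 MLL-AF9 samples, and the gap was 0.692 of the range. Flt3 was at 5.493 CPM there, also the highest of 6, and the gap was 0.747 of the range. Without that sample the log2 fold change against WT HSPCs was -2.57 for Il3ra (adjusted p = 2.66e-04) and -6.50 for Flt3 (adjusted p = 4.04e-05).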

How the results depend on the processing

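Against WT HSPCs, the number of receptors called in either direction was 5 to 7 under 20 settings and 6 with each of 10 samples left out. Against Mir139KO HSPCs it was 5 to 8 and 6. The main fits called 62.2% and 69.3% of all genes. With GC correction 5 were lower and 2 higher against WT (58.9% of all genes called). Against Mir139KO 6 were lower and 2 higher (10727 of 16953 genes called). With total counts only 4 were lower and 1 higher against WT (9873 of 17077 genes called). Against Mir139KO 5 were lower and 2 higher (11220 of 16953 genes called). Csf1r, Il3ra, Flt3 and Kit were called lower against WT in all 30. Csf3r missed the threshold in 5: total counts only (-0.94), GC correction (-0.98, adjusted p = 0.0504), GC correction with the replicate block (-0.96), puro cultures only (-1.06) and WT samples under 25% Gm26917 only (-1.56, adjusted p = 0.0526). The cause was not tested. Between the vectors 0 were called, but 3 with DESeq2 (1326 genes in place of 144), 2 with all 14 samples in a single fit, and 0 to 2 with each sample left out, the 2 being without puro replicate 2. Between Mir139KO and WT HSPCs 0 were called under all 26 settings. Of 20 ratio tests 6 were called, 0 with neo cultures only, puro cultures only or puro replicates 1 and 3 summed, and 0 to 7 with each sample left out (7 without puro replicate 2, otherwise 0). Each of these settings leaves fewer samples and so a larger smallest p in the comparisons they enter, and the tests are adjusted jointly. With the replicate block, 6, 0, 6 and 0 receptors were called in the 4 comparisons, as without it. Deviations of same-numbered samples correlated at -0.566 to 0.626 over 19 pairs, and those of different-numbered samples at -0.6615 to 0.605 over 54. Between WT and Mir139KO HSPCs the same-numbered r was negative where the Gm26917 classes differed (replicates 1 and 3). It was positive where they matched (replicates 2 and 4). These correlations therefore cannot show whether the numbers pair the samples.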
